A study of Mus musculus with 2 samples.

Results

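The genes described here encode the proteins of the cytosolic ribosome. They were taken as every gene of the expression matrix whose symbol is Rps or Rpl followed by a digit, a p or, for Rpsa, an a, without the Rps6k kinases and without symbols ending in -ps or -ps with a number. This gave 86 of 26078 genes, of which 43 belong to the large subunit, 31 to the small subunit and 3 (Rplp0, Rplp1 and Rplp2) to the stalk. The other 9 are paralogs or have another role (Rpl3l, Rpl7l1, Rpl10l, Rpl22l1, Rpl36al, Rpl39l, Rps27l, Rps27rt and Rps19bp1), and 1 of them, Rps19bp1, encodes a protein that binds Rps19 and is no ribosomal protein itself.

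The cells came from the livers of 1 Spta sph/sph mouse and 1 Spta wt/wt littermate, both untreated males of 8 to 10 weeks. Mice with both sph alleles have fragile red cells and hemolytic anemia. After perfusion with collagenase, nonparenchymal cells were enriched on beads coated with antibody to F4/80, a surface protein of macrophages, and sequenced as droplet 3' libraries, which count each captured transcript once by a unique molecular identifier (UMI). The barcodes of the matrix end in 1 or 2, called library 1 and library 2 here, and the labels used here tie neither number to a mouse, so no genotype is attached to a library. With 1 mouse per genotype there was no replicate check, no test between libraries was run, and every interval given is an exact 95% interval that covers counting error only.

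Ribosomal proteins are, for the most part, made in equal numbers for each ribosome, and their messenger RNAs are among the most abundant of any dividing cell. Most of these messengers begin with a short run of pyrimidines, the TOP motif, through which the growth-controlling kinase mTOR and the RNA-binding protein Larp1 adjust their translation together. Maturing red cells make ribosomes early, translate mostly globin late, and lose their ribosomes as reticulocytes; inherited loss of 1 copy of any of several ribosomal protein genes causes Diamond-Blackfan anemia, in which red cell precursors fail.

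Library 2 held 9726 barcodes with 56947765 UMIs (592 to 80846 per barcode) and library 1 held 8907 barcodes with 33099802 UMIs (500 to 37085 per barcode). The libraries shared 955 barcode sequences, and the copy of a shared barcode that was more than 5 times shallower was left out (51 in library 2 and 886 in library 1). A minimum of 200 genes and a ceiling of 20% on mitochondrial UMIs left 6898 cells of library 2 and 2673 cells of library 1. Cells were assigned to lineages by marker genes, with 8 of 9 markers detected in library 1 dendritic-like cells and every marker detected in the other lineages. Of these, 1011 cells of library 2 and 284 cells of library 1 carried markers of more than 1 lineage and were left out, as were 137 and 93 unassigned cells; 516 and 136 kept cells lay near the limit set for a second lineage. Globin genes took 6.27% of the Kupffer-like UMIs of library 2 and 0.0272% of those of library 1.

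The share of RNA given to ribosomal proteins differed several-fold between liver lineages, and the first 4 places fell to the same lineages in both libraries. Dendritic-like cells of the conventional kind, whose role is to show antigen to T cells, devoted 26.2% of their UMIs to the 86 genes in library 2 (26.1 to 26.3%, 56 cells) and 23.8% in library 1 (23.6 to 23.9%, 35 cells). T or natural killer-like (T/NK-like) lymphocytes followed with 21.6% in library 2 (40 cells) and 19.8% in library 1 (27 cells). Both lineages stood above all others in each library. Monocyte-like cells had 20.6% (99 cells) and 18.3% (126 cells), and B-like cells 18.6% (59 cells) and 17.4% (41 cells), in library 2 and library 1 in that order. Endothelial-like cells had 10.7% in library 2 (113 cells) and 6.43% in library 1 (279 cells). At the low end, stellate or fibroblast-like cells had 5.91% in library 2 (34 cells) and 3.6% in library 1 (32 cells), and hepatocyte-like cells had 4.74% (38 cells) and 4.38% (52 cells). All these shares are pooled, so deep cells weigh more in them. The median hepatocyte-like cell had 2.88% in library 2 and 1.74% in library 1, where the pooled value lay above the 90th percentile of cells (2.89%).

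The Kupffer-like macrophages that the beads were meant to enrich were on the low side, with 9.22% in library 2 (9.21 to 9.23%, 4601 cells) and 8.72% in library 1 (8.70 to 8.73%, 1703 cells). Erythroid-like cells, printed for library 2 alone because fewer than 25 cells passed the gate in library 1, had 17.2% over 704 cells. Their spread between cells was wide: the lower quartile of cells stood at 2.17%, the median at 6.38% and the upper quartile at 20.8%. In library 2 Kupffer-like cells the same 3 values were 6.43%, 8.38% and 10.3%, and in library 1 they were 6.50%, 7.92% and 9.56%.

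**Figure D1:**
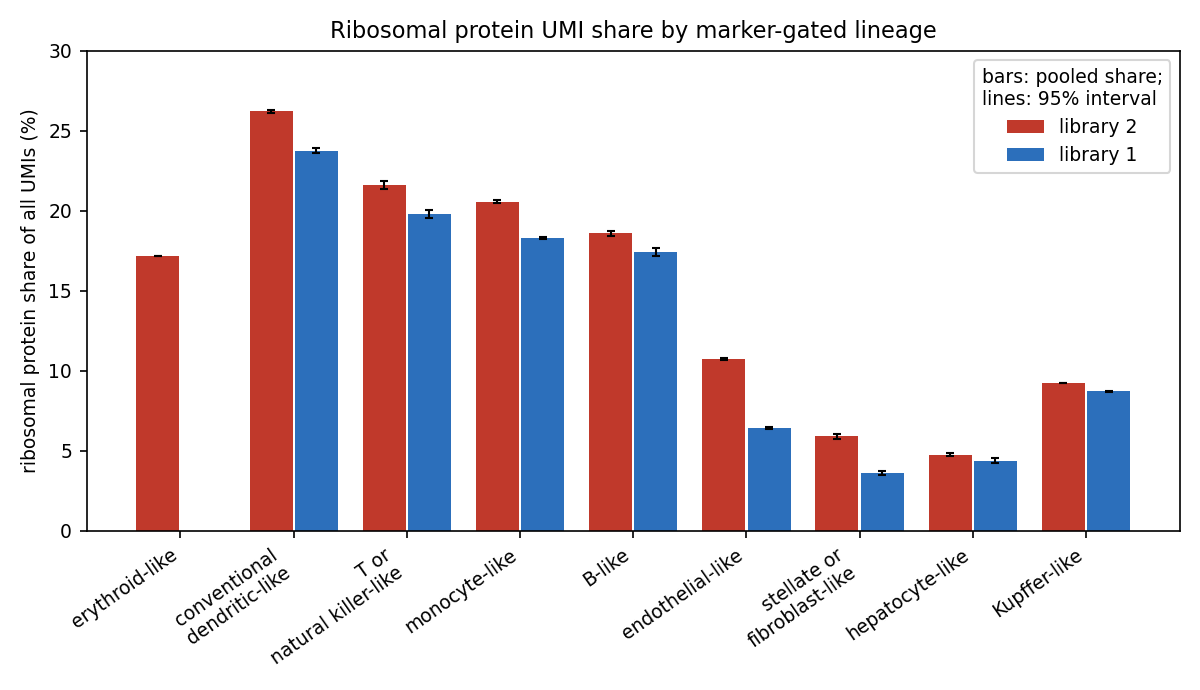
Share of all UMIs (%) that fell on the 86 ribosomal protein genes in each marker-gated lineage, library 2 in red and library 1 in blue, with exact 95% intervals for counting error as lines. Conventional dendritic-like cells stand highest at 26.2% and 23.8%, Kupffer-like cells stand at 9.22% and 8.72%, and the red bar is the taller in each of the 8 lineages that have both.

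Gene by gene, the lymphoid and myeloid lineages stood above Kupffer-like cells almost across the whole ribosome. A gene was counted as apart where its level, in CPM (UMIs scaled to a common library total), differed at least 2-fold, among genes with at least 50 CPM and 30 UMIs in either group. In conventional dendritic-like over Kupffer-like cells, 72 of 81 members passed that limit upward in library 2, where 16.5% of all genes tested did, and 69 of 82 in library 1, against 10.7% of all genes. Their median log2 ratio was 1.58 in library 2 and 1.58 in library 1. The counts for T/NK-like cells were 61 of 81 in library 2 (13.2% of all genes) and 60 of 82 in library 1 (11.1%). Monocyte-like cells had 58 of 81 (17.4% of all genes) in library 2 and 57 of 82 (13.7%) in library 1, and B-like cells had 46 of 81 (11.2%) and 46 of 82 (10.6%). Relative to the median of all genes the B-like counts were 71 of 81 (17.1% of all genes) in library 2 and 69 of 82 (20.4%) in library 1. All of these lineages were set against the same Kupffer-like cells, so their counts are not independent of each other. The 10 Kupffer markers, all detected, made up 0.232% to 0.665% of the UMIs outside globin and mitochondrial genes in the 4 lineages of library 2 and 0.0851% to 0.180% in library 1, against 3.39% and 2.08% in the Kupffer-like cells; their part in these ratios was not tested.

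The genes at the ends of these comparisons recurred. In library 2 Rps7, a small-subunit protein, had 2592 CPM in dendritic-like and 2008 CPM in monocyte-like cells, against 463 CPM in Kupffer-like cells, log2 ratios of 2.49 and 2.12, the highest of all members in both lineages. Rps27, a zinc-binding small-subunit protein, had 4519 CPM in T/NK-like and 3258 CPM in B-like cells of the same library, against 874 CPM in Kupffer-like cells (log2 ratios of 2.37 and 1.9). In library 1 the Rps27 levels were 4476 CPM in T/NK-like cells and 4544 CPM in B-like cells, against 1040 CPM in Kupffer-like cells. Its ratio ranked first among the members in B-like cells of both libraries, and first or second in T/NK-like cells. At the other end, Rps27l, the paralog of Rps27 that p53 can induce, was lower in T/NK-like cells, with 155 CPM in library 2 and 154 CPM in library 1, against 267 CPM and 186 CPM in Kupffer-like cells. Rpl22l1, the paralog of the large-subunit protein Rpl22, stood among the 5 lowest in dendritic-like, monocyte-like and T/NK-like cells of both libraries. Rps29 was close to level in lymphocytes: it had 5186 CPM in T/NK-like cells and 4061 CPM in library 2 Kupffer-like cells, and 5475 CPM and 4989 CPM in library 1.

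Because whole-ribosome shares differ between lineages, each gene was also expressed as its share of the ribosomal protein UMIs of its lineage, which shows the make-up rather than the amount. Many departures from Kupffer-like cells pointed the same way in both libraries. In T/NK-like cells, Rps27 made up 2.09% of ribosomal protein UMIs in library 2 and 2.26% in library 1, against 0.947% and 1.19% in Kupffer-like cells, log2 ratios of 1.14 (1.01 to 1.27) and 0.92 (0.79 to 1.05). Rps24 was also a larger part there, by 0.81 in library 2 and 0.79 in library 1 on the log2 scale. Rpl10, a large-subunit protein that joins the particle last and completes its active centre, was a smaller part, with log2 ratios of -0.99 in both libraries, and so was Rps27l, with -2.01 (16 UMIs) in library 2 and -1.45 (17 UMIs) in library 1. In B-like cells Rplp1, 1 of the acidic stalk proteins that call in elongation factors, was a smaller part in library 2 (-0.94) and library 1 (-0.91). In monocyte-like cells the same gene had log2 ratios of -1.34 and -1.04, and Rps7 ratios of 0.96 and 0.80. In dendritic-like cells Rpl22l1 had -1.36 and -1.0, and Rpl7l1, a paralog of Rpl7 with a role in ribosome assembly, had -0.83 (28 UMIs) and -1.45 (17 UMIs).

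Over all members with enough UMIs, the interval of the ratio lay above 0 in both libraries for 32 of 82 genes in dendritic-like cells, 35 of 82 in monocyte-like cells, 18 of 81 in T/NK-like cells, 22 of 81 in B-like cells, 26 of 81 in endothelial-like cells, 10 of 62 in hepatocyte-like cells and 3 of 41 in stellate or fibroblast-like cells. It lay under 0 in both for 20, 18, 15, 12, 12, 9 and 1 genes of these lineages in the same order, and on opposite sides for 6, 5, 2, 0, 4, 1 and 0. The log2 ratios of the 2 libraries had a Pearson r across genes of 0.82 in dendritic-like, 0.81 in monocyte-like, 0.79 in T/NK-like, 0.74 in B-like, 0.63 in endothelial-like, 0.76 in hepatocyte-like and 0.47 in stellate or fibroblast-like cells; genes are not independent replicates, and these values are descriptions. In endothelial-like cells Rps6, whose protein is the textbook substrate of S6 kinase, was the most enriched by mean ratio (0.89 in library 2 and 0.52 in library 1). The large subunit made up 47.1% of ribosomal protein UMIs in library 2 Kupffer-like cells and 45.8% in library 1, and between 47.1% and 48.7% in the dendritic-, monocyte-, B-, endothelial- and T/NK-like cells of both. Hepatocyte-like cells had more, 51.2% in library 2 and 51.5% in library 1, and less of the small subunit, 41.9% and 42.3%. These are pooled values that deep cells weigh on, and the make-up of a typical hepatocyte-like cell was not computed. The stalk ran from 4.10% in library 1 B-like cells to 7.28% in library 2 Kupffer-like cells.

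**Figure D2:**
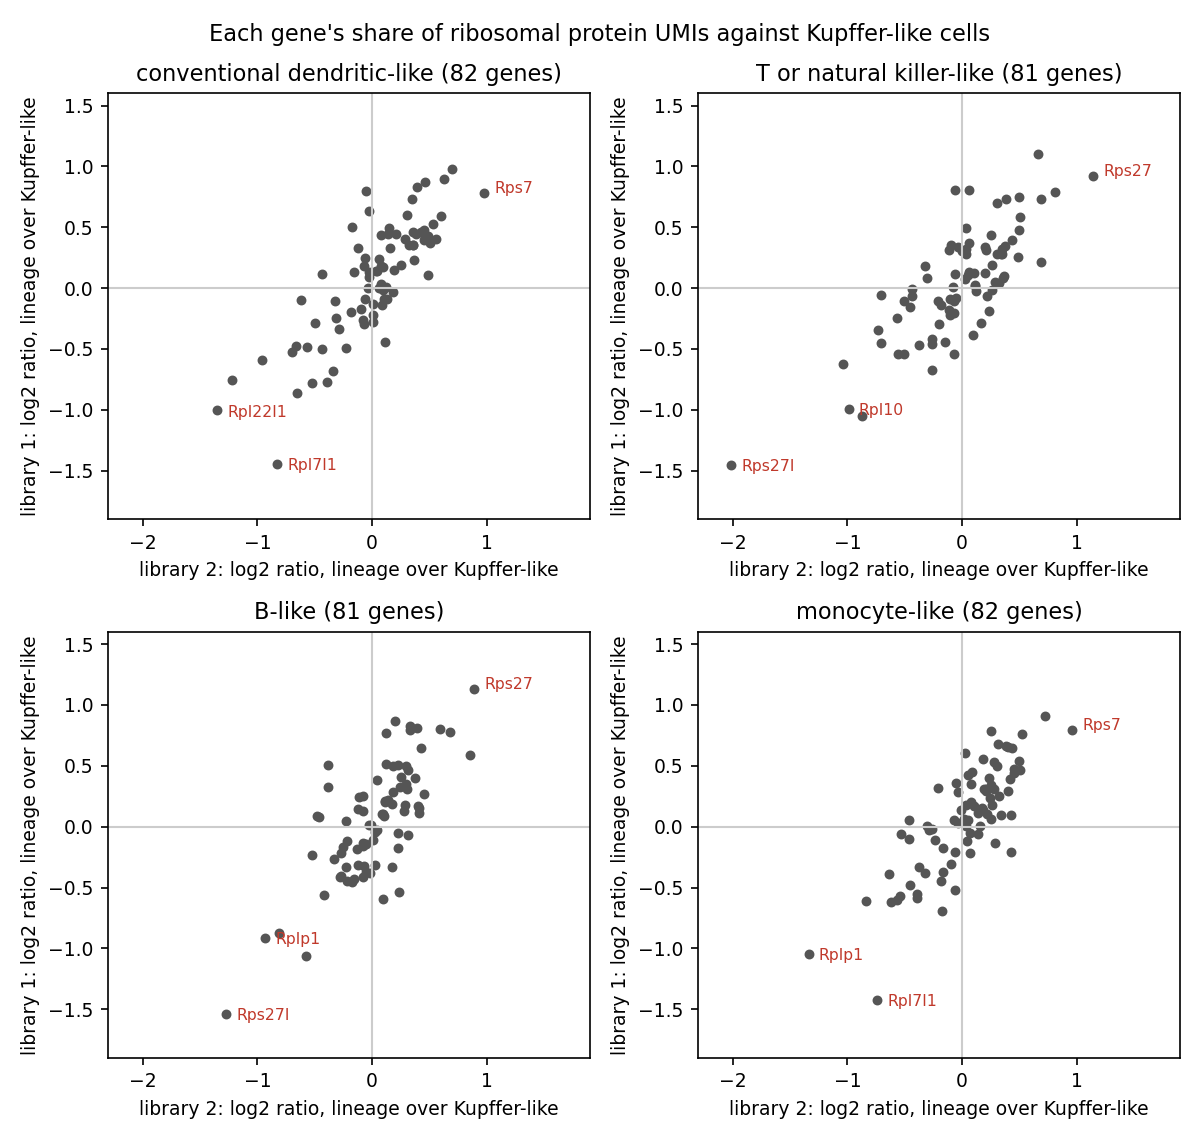
Log2 ratio of each gene's share of ribosomal protein UMIs, lineage over Kupffer-like cells, in library 2 (horizontal) and library 1 (vertical), 1 point per gene with at least 30 UMIs behind it in either group. Points follow the diagonal in all 4 lineages, with Rps27 at the upper right in T/NK-like cells (1.14, 0.92) and Rps27l at the lower left (-2.01, -1.45).

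Between the libraries, the total of Kupffer-like cells differed by 0.08 on the log2 scale, with genes on either side. Over UMIs outside globin and mitochondrial genes this ratio was 0.16. None of the 82 genes tested was 2-fold apart, against 12% of all genes tested. The members' median log2 ratio was 0.11, where the median of all genes was -0.31, and 56 of 82 were above 0; relative to the median of all genes 4 members were 2-fold higher (Rpl12, Rpl15, Rps15a and Rps2), against 6.14% of all genes. The other 4 members (Rpl3l, Rpl10l, Rpl39l and Rps19bp1) were under the minimum.

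Rps15a, a small-subunit protein, was the highest in library 2, with 1442 CPM there and 770 CPM in library 1 (log2 ratio 0.91). Rpl15, a large-subunit protein, had 639 CPM and 355 CPM (0.85), and Rpl12, which sits at the base of the stalk, 676 CPM and 389 CPM (0.80). Rps2 had 1180 CPM in library 2 and 721 CPM in library 1 (0.71), and Rpl22l1 381 CPM and 240 CPM (0.67). Lowest was Rps27rt, a retrogene copy of Rps27 whose reads could be confused with those of its parent, with 79.2 CPM in library 2 and 152 CPM in library 1 (-0.94). Rpl7l1 followed with 34.1 CPM and 52.7 CPM (-0.63). Rps28 had 1433 CPM in library 2 and 2134 CPM in library 1 (-0.57), Rpl5, which with Rpl11 and 5S RNA can bind the p53 regulator Mdm2, 465 CPM and 650 CPM (-0.48), and Rps9 1746 CPM and 2374 CPM (-0.44). All 20 Diamond-Blackfan genes were measured and none was 2-fold apart; Rps15a, Rpl15 and Rpl11 (0.53) stood highest among them, and Rps28, Rpl5 and Rps29 (-0.30) lowest.

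Part of these contrasts recurred in other lineages when read as shares of ribosomal protein UMIs. Over Kupffer-, endothelial-, B-, T/NK-, dendritic- and monocyte-like cells, 80 genes could be followed in all 6, in library 2 over library 1. By CPM level 38 of them were higher in library 2 in all 6 lineages and 0 were lower in all 6. How many of all genes kept 1 direction in all 6 was not computed. These counts, and those by share that follow, therefore cannot be called particular to the members. By share of ribosomal protein UMIs, which sets the total of the members aside, that of 18 genes was higher in library 2 in all 6 lineages, and that of 14 was lower in all 6. Among the first, Rps15a had log2 ratios between 0.17 and 0.82, Rpl22l1 between 0.17 and 0.59, and Rpl15 between 0.09 and 0.77. Among the second, Rps28 had -0.76 to -0.49, Rpl5 -0.58 to -0.19 and Rps27rt -1.91 to -0.54. By level these 3 were higher in library 2 in endothelial-like cells (0.25, 0.55 and 0.06) and lower in the other 5 lineages. Rps9 was a larger share of library 2 in dendritic-like (0.03) and monocyte-like (0.11) cells, and Rpl11 a smaller one in B-like cells (-0.05), against their direction in Kupffer-like cells. A library-wide difference of this kind, seen in several lineages, cannot be told apart from a difference between the mice, since each library is 1 mouse and 1 preparation.

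Endothelial-like cells, the lining of the liver sinusoids, showed the largest difference between libraries in the pooled total share, 10.7% in library 2 and 6.43% in library 1 (log2 ratio 0.74, 0.72 to 0.76). Stellate or fibroblast-like cells had 0.71 (0.65 to 0.78) on 34 and 32 cells, and the other 6 lineages with both libraries had 0.08 to 0.17. This order depends on pooling. As a mean over cells, hepatocyte-like cells had 3.79% in library 2 and 2.08% in library 1. Endothelial-like cells had 10.5% and 5.99%, a smaller ratio. In endothelial-like cells 11 of 82 genes stood 2-fold or more above their library 1 level, against 4.84% of all genes tested, and 79 of 82 were above 0, with a median of 0.75 against -0.17 over all genes; relative to that median 34 were 2-fold higher, against 7.18% of all genes. Rpl12 had 693 CPM in library 2 and 273 CPM in library 1 (1.34), Rpl32 1158 CPM and 476 CPM (1.28), and Rps15a 1524 CPM and 649 CPM (1.23). Rpl10a (1.19) and Rpl15 (1.17) came next, while Rpl7l1 (-0.24), Rpl36al (-0.07), Rps27l (-0.03), Rps27rt (0.06) and Rpl7a (0.23) stood lowest. Kupffer-marker UMIs made up 0.453% of UMIs outside globin and mitochondrial genes in these cells of library 2 and 0.138% in library 1, and the part of this in the result was not tested; median depth was 4649 UMIs in library 2 and 2948 in library 1. Monocyte-like cells had 0 of 81 genes 2-fold apart between the libraries, against 10.1% of all genes tested, with a median of 0.21 where all genes had -0.12; whether this differs from endothelial-like cells was not tested.

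Within Kupffer-like cells the share was highest in the deepest cells. In 4 equal groups of cells by UMIs, shallowest first, it was 7.26%, 8.34%, 8.46% and 9.90% in library 2 and 7.74%, 7.37%, 8.28% and 9.55% in library 1. Cells with at least 3 proliferation genes had 10.2% in library 2 (338 cells) and 9.52% in library 1 (95 cells), against 8.84% and 8.36% in cells with 0 such genes. Cells with proliferation genes were also deeper. In the middle of their depth range the values were 9.81% with at least 3 such genes and 9.69% with 0 in library 2, and 8.82% and 8.6% in library 1. Depth was still not equal there, with medians of 12888.5 and 11401 UMIs in library 2 and 8065 and 6530 in library 1.

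Several ribosomal proteins have a second gene, and the balance within such pairs differed by lineage. The counts are of 3' tags, 1 per molecule, so the 2 genes of a pair were set side by side without a length correction. How reads that match more than 1 gene were counted is not given, and its part in these percentages was not tested. Rpl22l1 made up 35.2% of the UMIs of its pair with Rpl22 in library 2 Kupffer-like cells (34.6 to 35.7%) and 25% in library 1 (24.1 to 25.9%). It was 16.7% (14.7 to 18.9%) and 12.8% (10.6 to 15.2%) in dendritic-like cells and 18.6% and 14.9% in T/NK-like cells, the lowest lineages in both libraries. In early, late and terminal erythroid-like cells it was 31.9%, 31.1% and 39.0%, the last on 105 UMIs of the pair with an interval of 29.7 to 49.1%. In mouse cells Rpl22 is known to hold down Rpl22l1.

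Rps27l made up 23.4% of its pair with Rps27 in library 2 Kupffer-like cells (22.9 to 23.8%) and 15.2% in library 1 (14.6 to 15.8%). In T/NK-like cells the values were 3.31% (1.91 to 5.32%) and 3.33% (1.95 to 5.28%), and in B-like cells 6.37% and 2.74%, and neither interval reached that of Kupffer-like cells in either library. Dendritic-like cells had 8.20% and 7.43% and monocyte-like cells 12.2% and 8.59%. Early, late and terminal erythroid-like cells had 29.2%, 28.2% and 16.4% (8.79 to 27.0%, 73 UMIs of the pair). The high values of hepatocyte-like cells, 45.4% in library 2 and 36.4% in library 1, rested on 14 of 38 and 2 of 52 cells.

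Rpl36al, a near-identical copy of Rpl36a without introns, had 28.5% of its pair in library 2 Kupffer-like cells and 33.0% in library 1, and 32.5% and 43.4% in monocyte-like cells, the highest of the immune lineages. Reads of such copies may be split between them uncertainly by the counting. Rpl7l1 made up 3.69% of its pair with Rpl7 in library 2 Kupffer-like cells and 4.18% in library 1. Rpl39l, known as a testis form of Rpl39, had 283 UMIs in 4601 library 2 Kupffer-like cells and 88 UMIs in 1703 cells of library 1, 0.540% and 0.762% of its pair. In erythroid-like cells it had 3 UMIs against 21002 of Rpl39 (0.0143%, 0.00294 to 0.0417%), and in dendritic-like cells it had 0, which the intervals limit to 0.140% of the pair in library 2 and 0.264% in library 1. Rpl3l, the striated-muscle form of Rpl3, had 36 UMIs in library 2 Kupffer-like cells and 14 in library 1, and Rpl10l, a testis form of Rpl10, had 1 UMI in all kept cells.

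**Figure D3:**
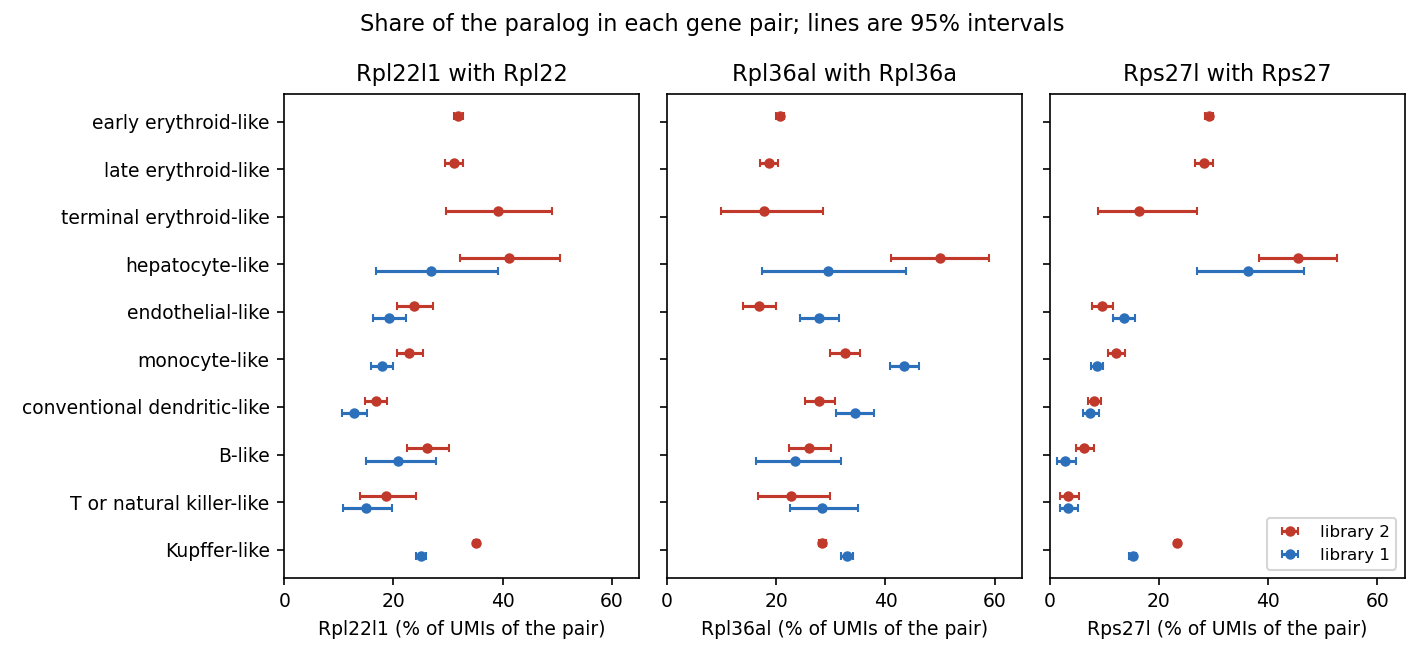
Share of UMIs (%) that the paralog holds within its gene pair, by lineage, library 2 in red and library 1 in blue, with exact 95% intervals for counting error as lines. Rps27l lies near 3.3% in T/NK-like cells of both libraries, against 23.4% and 15.2% in Kupffer-like cells; Rpl22l1 is highest among the immune lineages in library 2 Kupffer-like cells at 35.2%.

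Erythroid-like cells of library 2 were divided into early (218 cells), late (366 cells) and terminal (120 cells) by marker lists read outside globin, mitochondrial and ribosomal protein genes. The same lists set the stages, so their levels describe the stages and do not check them. Early markers made up 12.9, 2.27 and 0.505 of 10000 UMIs outside globin and mitochondrial genes across the 3 stages, and terminal markers 18.6, 113 and 558. Late markers made up 30.3, 150 and 219, and so were highest in terminal cells. In terminal cells Kit, Gata2, Myb, Muc13 and Cnrip1 of the early list had no UMI. Globin took 7.28%, 42.7% and 71.5% of all UMIs, and 96.8%, 78.7% and 12.5% of the cells carried at least 3 proliferation genes. Median depth also fell, with 19590, 7610 and 5875.5 UMIs, and its part in these percentages was not tested. By level, proliferation genes were highest in late cells, at 48.73, 100.96 and 29.17 of 10000 UMIs outside globin and mitochondrial genes. Of the 704 cells, 117 lay close to a boundary between stages.

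The ribosomal protein share was 24.8% in early, 9.64% in late and 1.69% in terminal cells. Globin takes up part of the total, so each value is also given over UMIs outside globin and mitochondrial genes, where it was 29.0%, 18.9% and 7.63%. These are pooled values, in which deep cells weigh more. On the same scale the median cell had 28.5%, 10.5% and 6.91%. Grouping the cells by globin alone gave the same course: from under 5% globin, through 5 to 20%, 20 to 40% and 40 to 60%, to 60% or more (106, 104, 132, 180 and 182 cells), the share outside globin and mitochondrial genes was 28.9%, 29.6%, 23.9%, 13.0% and 7.63%. The share thus stayed level until globin passed 20% and was lower in each later bin. Kupffer markers were higher at the later stages, with 10.9, 44.4 and 111 of 10000 UMIs outside globin and mitochondrial genes in early, late and terminal cells, with 10 of 10 markers detected at each stage. Their part in the result was not tested, and the cells were only split by these markers as follows. In the terminal cells above the median for these markers the share was 7.42%, and in those at or under it 7.76%. In late cells it was 10.3% and 21.9%, and in early cells 27.2% and 29.6%. The split also parted cells by globin: in the same order 70.7% and 72.1% in terminal, 52.3% and 37.8% in late, and 14.9% and 3.85% in early cells. Terminal cells at or under the median still had 80.5 Kupffer-marker UMIs of 10000. The split therefore cannot set apart the part of Kupffer RNA.

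**Figure D4:**
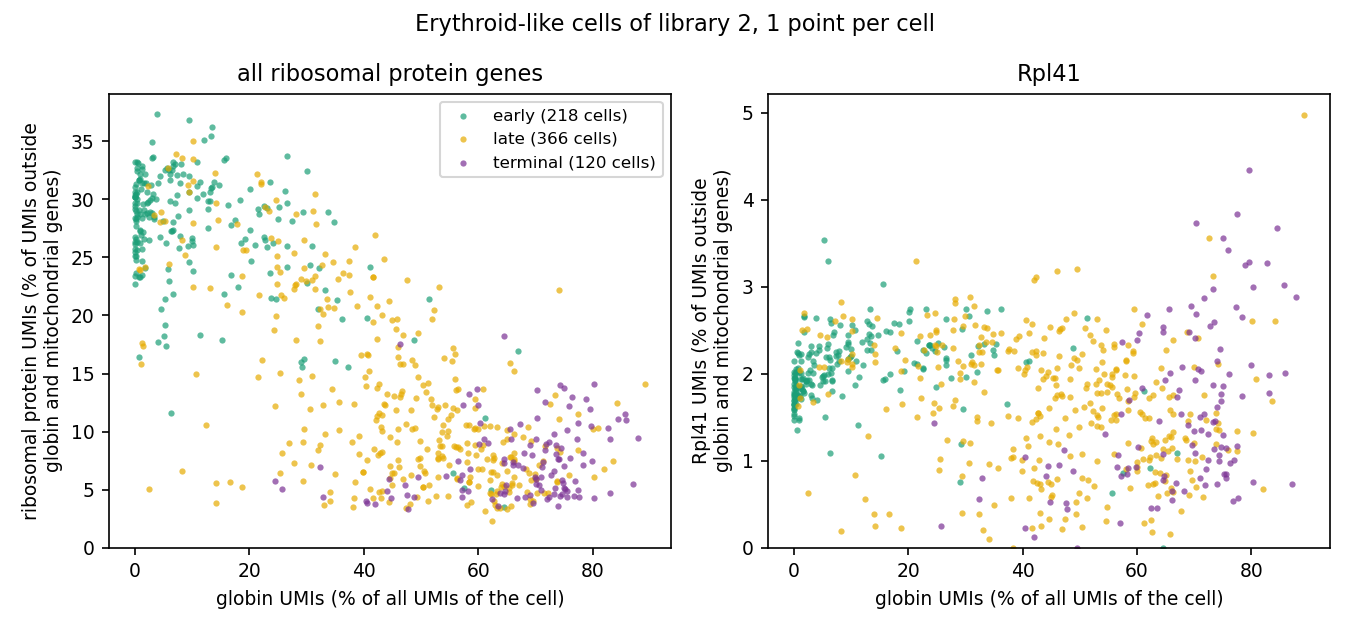
Each point is 1 erythroid-like cell of library 2, placed by globin UMIs (% of all UMIs) and by ribosomal protein UMIs (left) or Rpl41 UMIs (right) as % of UMIs outside globin and mitochondrial genes, coloured by stage. All ribosomal protein genes together go down from about the pooled 29.0% of early cells to the 7.63% of terminal cells, while Rpl41 spreads around a similar level at every globin content.

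Early erythroid-like cells were first set against Kupffer-like cells of the same library. There 76 of 83 genes were at least 2-fold higher, against 37.5% of all genes tested, with a median log2 ratio of 1.49 where all genes had 0.41; relative to that median 50 were 2-fold higher, against 28% of all genes. Rps2 had 5651 CPM in early erythroid-like and 1180 CPM in Kupffer-like cells (2.26), Rplp0, the scaffold of the stalk, 3991 CPM and 865 CPM (2.21), and Rpl4, which lines the exit tunnel, 1176 CPM and 260 CPM (2.18). Rps18 (2.14) and Rpl28 (1.98) completed the upper end. Rps29 differed least, with 5094 CPM and 4061 CPM (0.33), followed by Rps27rt (0.51), Rpl10 (0.59), Rpl38 (0.63) and Rpl37a (0.66). Of the 20 Diamond-Blackfan genes, 19 were at least 2-fold higher, Rps29 being the exception. Of the translation factors 25 of 36 were 2-fold higher, and of the ribosome biogenesis genes 24 of 26.

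Summed over cells, late cells stood below early cells, and most of the 2-fold differences went once globin was left out. Deep cells weigh more in such sums: the median late cell had a share of 10.5% outside globin and mitochondrial genes, against 18.9% pooled. The median early cell had 28.5%, so the gene counts that follow need not describe a typical late cell. In late over early cells 81 of 83 genes were at least 2-fold lower over all UMIs, against 47.2% of all genes tested, and relative to the median of all genes 0 were, against 11.8%. Over UMIs outside globin and mitochondrial genes 10 of 83 were, against 14.2% of all genes, and the median was -0.75, where all genes had -0.07. Rpl36al fell most, to 287 CPM of this scale in late cells, against 623 in early cells (-1.12), then Rpl18 (-1.10), Rpl14 (-1.10), Rpl30 (-1.05) and Rpl32 (-1.05). Rpl41 had 19242 and 19829 CPM (-0.04), and Rps29 5263 and 5944 (-0.18).

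In terminal over early cells every gene tested was lower, by very different amounts. Over all UMIs 83 of 83 genes were at least 2-fold lower, against 83.5% of all genes, with a median of -4.45 where all genes had -3.17. Relative to that median 55 were 2-fold lower, against 28.1% of all genes, and Rpl41, Rpl38, Rplp2 and Rps29 lay above it. Over UMIs outside globin and mitochondrial genes 81 of 83 were at least 2-fold lower, against 54.2% of all genes, with a median of -2.49 where all genes had -1.19. All values that follow are on this second scale: levels are CPM of the total without globin and mitochondrial genes, with log2 ratios beside them.

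Rpl41 was the least reduced. It encodes the smallest ribosomal protein, a basic peptide of 25 codons, and lies on chromosome 10 (gene ENSMUSG00000093674, positions 128548114 to 128549305, build GRCm38). It had 16812 CPM in terminal cells, from 2997 UMIs, and 19829 CPM in early cells (-0.24, -0.29 to -0.19), and it came to 20.6% of all ribosomal protein UMIs in the cells with the most globin, where it was 6.47% in those with the least. Kupffer-like cells of the library had 5236 CPM of it, and the terminal cells with fewer Kupffer markers had 17749 CPM, those with more 15324. Rpl38, a protein that in mouse embryos is needed for the translation of particular Hox messengers, had 2076 and 3735 CPM (-0.85). The stalk protein Rplp2 had 2395 and 4875 (-1.03), Rps29 2749 and 5944 (-1.11) and Rpl37a 2496 and 6539 (-1.39). Kupffer-like cells of the library had 4308 CPM of Rpl37a. Kupffer markers made up 1.11% of UMIs on this scale in terminal cells, against 3.39% in Kupffer-like cells. The part of Kupffer RNA in these terminal levels, and in their order, was not tested.

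Rps18, which sits in the head of the small subunit, was the most reduced, with 157 CPM in terminal cells, from 28 UMIs, and 2503 in early cells (-3.99, -4.58 to -3.46). Rps27l had 67.3 and 1063 CPM (-3.98, from 12 UMIs in terminal cells), Rpl13a 61.7 and 696 (-3.49, from 11 UMIs) and Rpl32 353 and 3683 (-3.38). Rps19bp1 had 1 UMI in terminal cells, and its ratio of -3.54 has an interval of -8.85 to -1.05. The stalk differed within itself, since Rplp0 had a ratio of -2.17 and Rplp1 of -1.87 beside the -1.03 of Rplp2. The large subunit made up 55.2% of ribosomal protein UMIs in terminal cells, the small subunit 36.1% and the stalk 8.22%, where early cells had 48.5%, 43.6% and 6.88%. Rpl41 is counted in the large subunit. It made up 22.9% of ribosomal protein UMIs in terminal cells at or under the Kupffer-marker median and 20.7% in those above. In early cells split likewise it made up 6.48% and 7.87%. These subunit shares therefore include the change of Rpl41, and shares without it were not computed. Without a second erythroid library this pattern has no replicate.

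**Figure D5:**
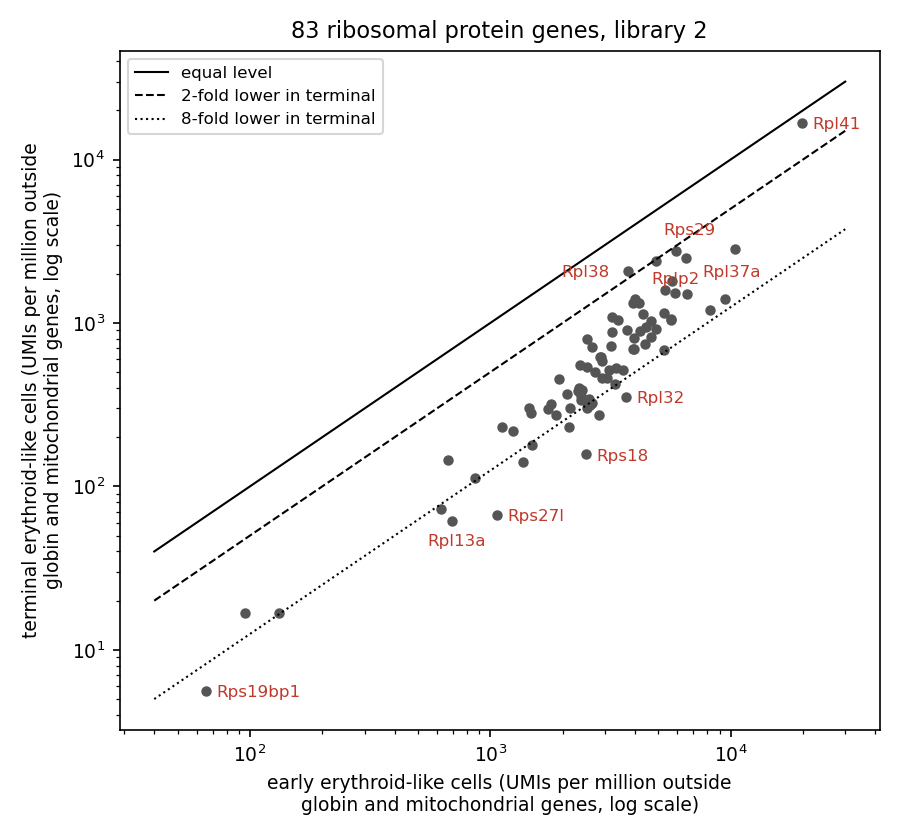
Level of 83 ribosomal protein genes in terminal (vertical) against early (horizontal) erythroid-like cells of library 2, in CPM outside globin and mitochondrial genes, both axes on a log scale, with lines at equal level and at 2-fold and 8-fold lower. Rpl41 (16812 against 19829 CPM) and Rpl38 are the points above the 2-fold line, and Rps18, at 157 against 2503, lies farthest under it.

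To show whether the starts of these messengers look alike, 30 bases around the RefSeq start of transcription (15 before and 15 from the start on, gene strand, GRCm38.p6) are printed for the 5 members with the highest and the 5 with the lowest terminal over early ratio among the 66 members that matched a RefSeq promoter. The first listed start of each gene was used for these windows, and some members were left out by chromosome. Capitals mark the longest run of at least 5 pyrimidines (C or T), the letters of a TOP motif. Windows without capitals hold no such run. The Rpl41 window lies inside the gene positions given above and does not reach the end at which a minus-strand gene starts. The 5 highest were:
Rpl41, chr10:128549154-128549183, minus strand: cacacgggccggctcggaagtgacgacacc
Rpl38, chr11:114668565-114668594, plus strand: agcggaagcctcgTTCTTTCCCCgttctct
Rplp2, chr7:141447636-141447665, plus strand: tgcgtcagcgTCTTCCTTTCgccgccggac
Rpl37a, chr1:72711245-72711274, plus strand: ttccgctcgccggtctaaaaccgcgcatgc
Rpl39, chrX:37085208-37085237, minus strand: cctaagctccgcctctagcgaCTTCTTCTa
The 5 lowest were:
Rps18, chr17:33955651-33955680, minus strand: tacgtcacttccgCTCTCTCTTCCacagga
Rps27l, chr9:66946071-66946100, plus strand: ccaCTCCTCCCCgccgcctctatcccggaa
Rps19bp1, chr15:80264292-80264321, minus strand: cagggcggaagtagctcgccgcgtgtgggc
Rpl13a, chr7:45128731-45128760, minus strand: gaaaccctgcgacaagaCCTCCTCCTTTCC
Rpl18, chr7:45718056-45718085, plus strand: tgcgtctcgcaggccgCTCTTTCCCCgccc

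A run was found in 3 of the 5 highest and 4 of the 5 lowest windows. The low-end window without one is that of Rps19bp1, which is no ribosomal protein itself and had few UMIs in terminal cells. All other low-end windows held a run. In the counts that follow, a gene was counted if any of its annotated starts matched. A run of at least 5 pyrimidines lay in a window of 74.2% of the 66 members, against 51.5% of 27025 genes. A C followed by at least 4 pyrimidines exactly at the annotated start was found in 21.2% of members (14) and 3.01% of all genes. The letters CTTTC stood in a window of 27.3% of members and 4.76% of all genes, and those of GAAAG, the reverse complement, in 4.55% and 4.21%. In the 300 bases from 250 before to 50 after the start, CCGGAA, the core of ETS factor sites, was present on either strand in 54.5% of members and 16.7% of all genes, and GCCATNTT, the core of YY1 sites, in 19.7% and 6.96%. A match describes letters and not binding.

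Rpl41, Rpl38 and Rps29, which with Rplp2 were the 4 least reduced, have 25, 70 and 56 codons. The relation with coding length was described over all 83 genes. Spearman's rho across genes between coding length and the terminal over early ratio was -0.18, and -0.15 without Rpl41. Between expression level and the same ratio it was larger, at 0.50. The 11 genes under 300 coding bases had a median of -1.70, and the 72 others -2.51. Rpl39, of 51 codons, had a ratio of -1.51. These values are across genes of 1 library and carry no p-value.

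Other parts of the translation machinery were followed through the same stages. On this scale 54.2% of all genes were 2-fold lower and 16.8% were 2-fold higher in terminal over early cells, with a median of -1.19, and each count that follows is to be read against these. All 20 Diamond-Blackfan genes were at least 2-fold lower, as were 81 of the 83 members tested, with Rpl18 (-3.37), Rps7 (-3.21) and Rpl31 (-3.05) lowest, and Rps29 (-1.11), Rps24 (-1.65) and Rps28 (-1.70) highest. Outside the symbol rule, Fau, a fusion of a ubiquitin-like protein with a small-subunit protein, had a ratio of -2.0, and Rack1, a signalling scaffold on the small subunit, -2.03. Ribosome biogenesis genes had the lowest median of these lists, 28 of 29 being 2-fold lower (54.2% of all genes) with a median of -3.21: Nop58 (-5.64), nucleolin gene Ncl (-4.13) and Nop56 (-4.10) stood lowest and Sbds (-0.64), Ubtf (-1.47) and Polr1c (-1.49) highest. Mitochondrial ribosomal proteins were 2-fold lower in 59 of 62 (54.2% of all genes; median -2.21), from Mrpl18 (-4.91), Mrpl21 (-4.06) and Mrps23 (-3.99) to Mrpl2 (-0.88), Mrpl32 (-0.67) and Mrps21 (-0.59).

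Translation factors were mixed. Of 36 factors 28 were 2-fold lower (54.2% of all genes) and 2 were 2-fold higher (16.8% of all genes), with a median of -1.85; Eef1g (-3.69), Eif3g (-3.40) and Eif3e (-3.31) stood lowest. Eif5, which triggers GTP hydrolysis at the start codon, had 5963 CPM in terminal cells and 391 in early cells (3.93), and Pabpc1, the poly(A)-binding protein, 9839 and 1105 (3.15), while Tpt1 had 4510 and 3336 (0.43). Of 9 genes tested for ribosome rescue, turnover and translation control in red cells, 2 were 2-fold higher (16.8% of all genes) and 2 were 2-fold lower (54.2% of all genes). Ube2o, a ubiquitin-conjugating enzyme that marks ribosomal proteins for destruction in mouse reticulocytes, had 2552 CPM in terminal and 31.9 in early cells (6.32). Eif2ak1, the heme-regulated kinase that slows initiation, had 987 and 105 (3.24), and Nemf 118 and 103 (0.19). Abce1, which splits terminated ribosomes, had 28.0 and 249 (-3.15), Eif4ebp1 16.8 and 94.3 (-2.49), and Larp4 50.5 and 82.7 (-0.71).

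Over all kept cells, members that supplied large parts of the ribosomal protein UMIs included Rpl41 (5.24%), Rplp1 (3.89%), Rps29 (3.84%), Rpl37a (3.53%), Rps12 (2.33%), Rps21 (1.99%), Rps27a (1.97%), which is made as a fusion with ubiquitin, Rpl23 (1.94%) and Rpl38 (1.93%). Rpl41 stood at 4306 CPM in library 2 Kupffer-like cells and 3947 CPM in library 1, at 7704 and 7734 CPM in dendritic-like, at 7354 and 8063 CPM in T/NK-like, at 7982 and 6338 CPM in B-like and at 7406 and 6582 CPM in monocyte-like cells. These 4 lineages could not be put in an order that held in both libraries. Endothelial-like cells had 3791 and 2336 CPM, and early erythroid-like cells 16994 CPM.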

How the data were processed

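The matrix, as deposited by the authors, gives UMI counts in whole numbers for each gene and barcode. Cell Ranger 3.0.1, R 3.6.1 and build GRCm38.p5 are named per the submitters' processing notes. Annotation release, strand setting and depth equalising: not given in the sources used here. A cell's score for a lineage was its share of marker UMIs divided by the median share of cells rich in those markers. A cell needed at least 3 markers and a score of at least 0.25, with the second lineage at no more than 0.5 of the first. This gate was set after the counts had been seen, and lineages of fewer than 25 cells in a library are not printed. No doublet caller was run; cells of more than 1 lineage were left out, so doublets of 1 lineage remain. Erythroid-like cells took the stage whose marker level, divided by its 90th percentile, was highest. UMIs were summed per library and lineage, since cells are not replicates. Shares carry Clopper-Pearson and ratios conditional exact 95% intervals; a count of 0 was set to 3 UMIs. Members and lists were chosen with earlier results of these data known. Named genes are the 10 members with most UMIs, the paralog pairs, the stalk, examples of the Diamond-Blackfan list, the 5 highest and 5 lowest ratios of a comparison, and the 3 highest and 3 lowest of other lists; Rps6 and a few genes near these ends were named after their values were seen. Alternatives changed the mitochondrial limit, gene minimum, shared barcodes, marker number, denominator, mean over cells, level minimum and centring, and, chosen after seeing the data, the stage scaling and stage boundary. Rps4l, the partner of Rps4x, was not analysed here. Some items that these rules would name are not reported here. The counting was tested on simulated data. Sums and tests ran in scipy 1.17.1 and numpy 2.4.6 under python 3.11.15, tables in pandas 2.3.3 and plots in matplotlib 3.10.9. Promoter windows are from RefSeq, GRCm38.p6; 20 members had no entry.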

Additional observations from a re-analysis of the deposited data

Results flagged for a closer look

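The rule for the members leaves out 9 genes whose symbols end in -ps or -ps with a number, and 7 of them had UMIs. Their summed count in kept cells was 4273 UMIs, 0.0659% of the members' UMIs, led by Rps12-ps3 (1483), Rpl10-ps3 (1048) and Rpl27-ps3 (784). This signal stands outside the comparisons above and has no control level; reads of such copies and of their parent genes can be confused, and whether they were was not tested.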

How the results depend on the processing

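The Kupffer-like share ratio of library 2 over library 1 (log2 0.08) stayed above 0 under each alternative: 0.035 at 10% and 0.20 at 40% mitochondrial UMIs, 0.0926 at 500 genes, 0.0703 with shallow shared barcodes, 0.0879 with 5 markers, 0.16 outside globin and mitochondrial genes and 0.0526 as a mean over cells. Terminal over early (-3.88) became -3.91 at 10%, -3.81 with 5 markers, -1.93 outside globin and mitochondrial genes and -3.61 over cells. With stage scaling at the 95th percentile, and without cells near a boundary, both added after seeing the data, it was -3.90. Early erythroid-like over Kupffer-like (1.43) became 1.28 at 10%, 1.52 at 40%, 1.42 at 500 genes, 1.42 with 5 markers, 1.37 outside globin and mitochondrial genes, 1.41 over cells, and 1.45 in both added settings. Counts of genes 2-fold apart in Kupffer-like cells (0) became 1 at 10% (Rps27rt, lower), 1 at 40% (Rps15a, higher) and 4 relative to the median of all genes. Relative to that median, terminal over early went to 55, late over early to 0 (10 outside globin and mitochondrial genes), early erythroid-like over Kupffer-like to 50, endothelial-like cells to 34 and B-like over Kupffer-like cells of library 2 to 71. Of 40 single-gene results in 320 settings, 315 kept their direction. The 5 that turned did so relative to the median of all genes: terminal over early Rps29 (0.11), Rplp2 (0.20), Rpl38 (0.37) and Rpl41 (0.98), and early erythroid-like over Kupffer-like Rps29 (-0.084). None of 22 share ratios in 142 settings turned. No paired analysis was possible because each library is 1 mouse and no comparison was tested. Depth limits genes with few UMIs in terminal cells, such as Rps18 (28) and Rpl13a (11), and lineages of 27 to 59 cells.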
